A study of Mus musculus with 2 samples.

Results

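The inflammatory and NF-κB genes described here are 53 cytokine, chemokine, innate receptor and signalling genes. They are among 21883 coding genes on mouse chromosomes 1 to 19, X and Y. The 53 were named one by one and not by a cutoff on the data, but with earlier results of these data known. All 53 were found by symbol among the RefSeq records of mm10 (GRCm38.p6). The data are 1 list of peaks from chromatin immunoprecipitation and sequencing of the mouse line BV2, microglia made to grow without limit by viral oncogenes, using an antibody to the orphan nuclear receptor Nr4a2. Peaks were called on 1 precipitated library (20365794 tags kept) over 1 input library (22520884 tags kept). Names in the peak file carry the tag H2O2 for both libraries, whereas the sample labels state neither a treatment nor a genotype, so no more is known here of how the cells were kept. There was no replicate culture and no untreated or control antibody library, so no difference below has a test, and the intervals given cover counting error only. The list holds no expression values, so the identity of the cells was not checked against markers.

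NF-κB is a family of dimers built from the Rel proteins, which inhibitor proteins of the IκB family hold in the cytoplasm. Many Toll-like receptors and some cytokine receptors signal through MyD88, IRAK kinases and TRAF6 to the IκB kinase. That kinase marks the inhibitors for destruction and frees the dimers to switch on cytokine, chemokine and adhesion genes. In microglia this pathway drives much of the inflammatory response, and Nr4a2 is known as a factor that restrains it.

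Few of these genes carried a peak of their own, and where they did the peak was weak. Cd40 alone had a peak summit within 1000 bp of an end of its gene record, 1 of 53 genes (1.89%, exact Clopper-Pearson 95% interval 0.0478 to 10.1) against 2.36% of all coding genes. A summit lay inside the record of 6 genes (11.3%, 4.27 to 23.03), Il10, Tnip1, Ccl4, Irak4, Traf6 and Tlr6, against 11.6% of all coding genes. Counting each summit for the coding gene whose end was nearest, 11 genes (20.8%, 10.8 to 34.1) had at least 1 summit, against 21.1%. These 11 were Cd40, the 6 with a summit inside, and Il12b, Ptgs2, Tlr1 and Tlr4. At least 1 of the 3 definitions was met by the same 11 genes (20.8%), against 22.2% of all coding genes, and the other 42 genes met none. All 3 shares lay close to those of coding genes at large.

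**Figure D1:**
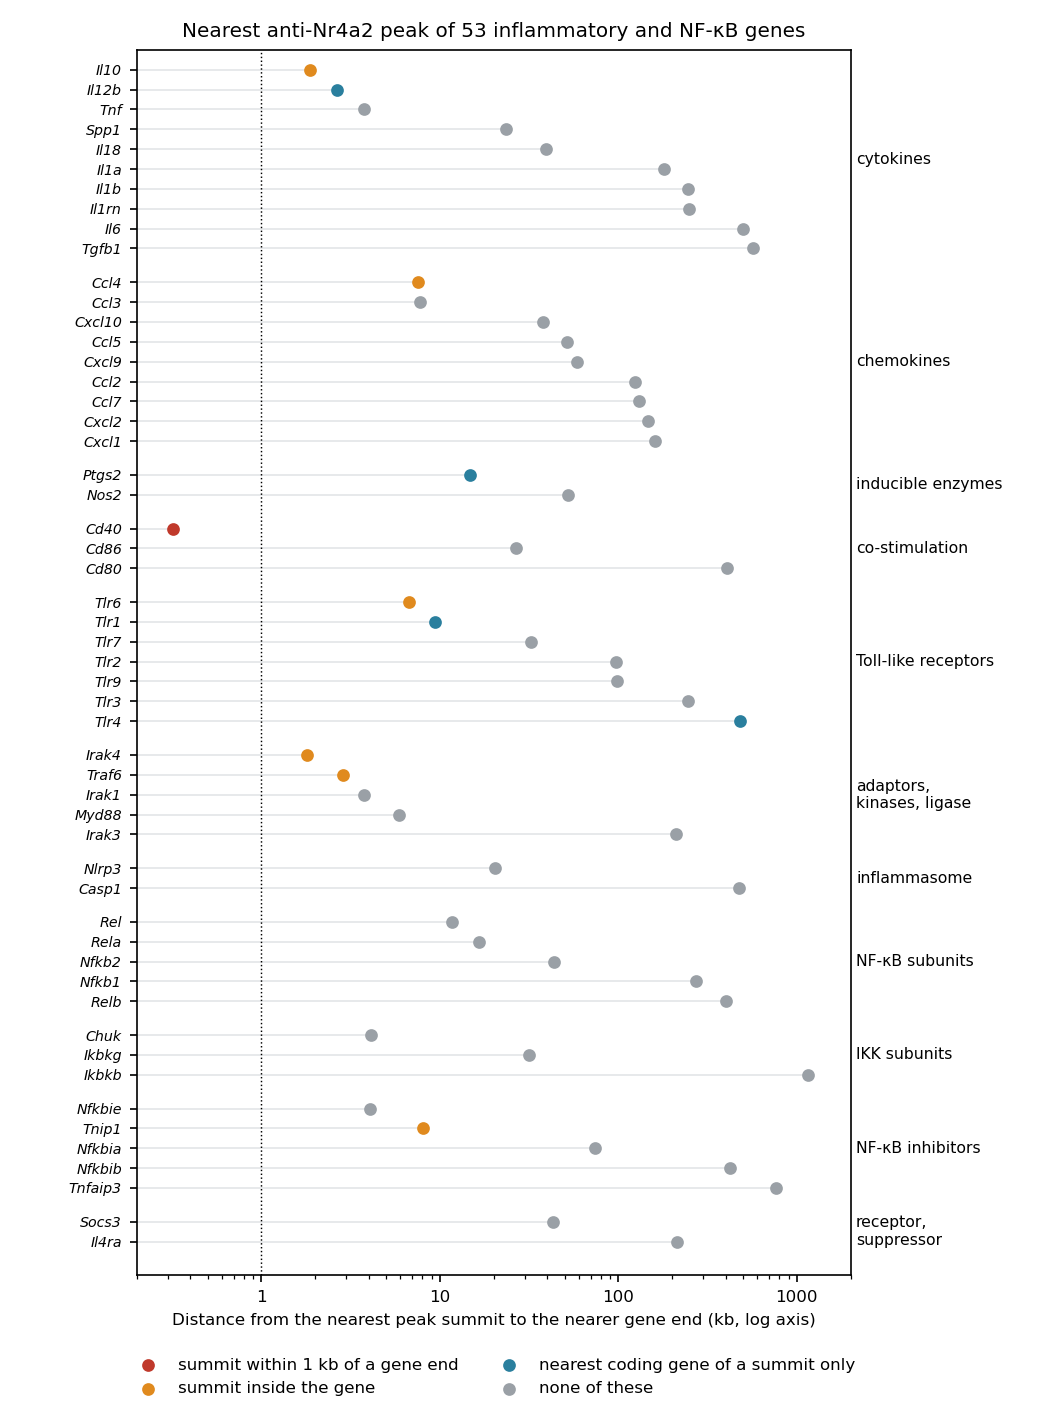
Distance in kb (log axis) from the nearest peak summit to the nearer end of each of the 53 genes, grouped by role. Each point is 1 gene, coloured by whether a summit lay within 1 kb of an end (dotted line), inside the gene, or nearest to it only. Cd40 at 0.321 kb is the single gene left of the line, and Ikbkb at 1158 kb is the farthest from a summit.

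Cd40 encodes the co-stimulatory receptor through which T cells activate microglia and macrophages. Its gene-end peak, on chromosome 2 at 165055199 to 165055411, reached 12 ChIP tags at the summit, 3.92-fold over background with a −log10 q of 1.76, values that are the authors' own for this and every peak below. The summit lay 321 bp outside the lower end of the gene. A second peak lay further out on the same side, 1845 bp from the end, with 9 tags and 3.12-fold. Its −log10 q was 0.76, below the 1.30 that corresponds to a q of 0.05. Cd40 was thus flanked on 1 side by a pair of peaks for which no other coding gene was nearer. The next genes outside the limit of 1000 bp were Irak4 at 1813 bp and Il10 at 1867 bp. For the co-stimulatory ligand genes Cd86 and Cd80, both recognised by CD28 on T cells, the nearest summits were 26.8 kb and 409 kb away. The peak near Cd86, of 3.23-fold, lay 1047 bp from Ildr1.

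Among the signalling proteins between receptor and kinase, 4 of 5 genes had a summit within 10 kb of an end. Irak4, the kinase that first joins MyD88, had a summit inside it on chromosome 15 at 94566403 to 94566566, with 12 tags, 4.67-fold and a −log10 q of 2.18. It lay 22.8 kb after the start site and 1.81 kb before the far end. Traf6, the ubiquitin ligase downstream of the IRAK kinases, had 2 summits inside it on chromosome 2. The first, at 101693453 to 101693771, had 10 tags, 3.95-fold and a −log10 q of 1.39. The second, at 101698499 to 101698811, had 8 tags, 3.23-fold and a −log10 q of 0.76. Both lay in the later part of the gene, 15.2 kb and 20.4 kb after the start site. Irak1, a partner kinase of Irak4, had a summit 3.77 kb before its start site, with 7 tags and 2.70-fold. The summit 5.92 kb before the start site of Myd88, the adaptor itself, lay inside Acaa1a, with 7 tags and 2.85-fold. Both of these peaks had a −log10 q of 0.54. Irak3, which encodes the inhibitory IRAK of macrophages, lay 211.5 kb from a summit on chromosome 10.

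**Figure D2:**
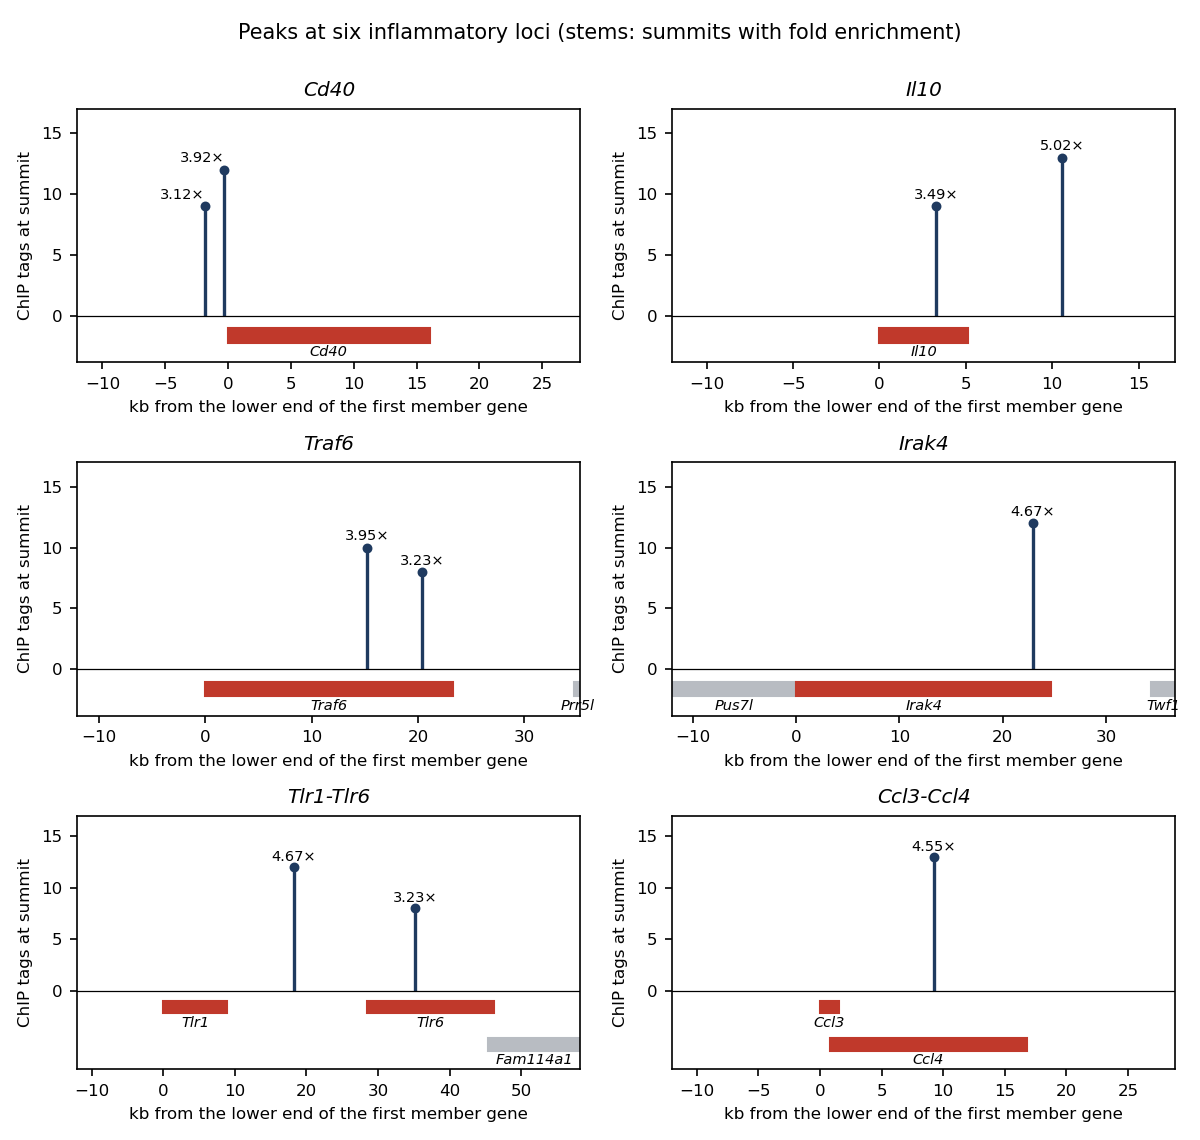
Maps of 6 loci with a summit at or near a member. Stems show each summit by its ChIP tags, with fold enrichment above, against position in kb from the lower end of the first member gene; red boxes are members and grey boxes other coding genes. Cd40 has both summits on its lower side, whereas those of Traf6 and Irak4 fall inside the genes and away from the lower end.

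The Toll-like receptors recognise microbial lipids, proteins and nucleic acids. Tlr1 and Tlr6, whose proteins each pair with that of Tlr2 at the cell surface, stand beside each other on chromosome 5 and had separate peaks. The peak at 64942908 to 64943084 lay in the gap between both genes, 9.36 kb from an end of Tlr1 and 9.41 kb before a start site of it, with 12 tags, 4.67-fold and a −log10 q of 2.18. The peak at 64959721 to 64960007 lay inside Tlr6, with 8 tags, 3.23-fold and a −log10 q of 0.76. The nearest summits on the far sides of the pair were 986 kb below and 80.5 kb above it. The Tlr6 summit was 6.76 kb from an end of the record but only 200 bp after 1 annotated start site and 682 bp before another. Of the 40 members with annotated start sites in RefSeq's promoter table, Tlr6 alone had a summit within 1000 bp of one (2.5%), against 1.74% of 17491 coding genes. Cd40 was among the 13 members without such a site, so its gene-end peak could not be placed against a start site.

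The other receptors lay farther from peaks. Tlr7, an endosomal sensor of single-stranded RNA, had its nearest summit at 32.5 kb, nearer to Tlr8. Tlr2 and Tlr9, a lipopeptide and a CpG DNA sensor, were 97.7 kb and 98.5 kb from a summit. Tlr3, a sensor of double-stranded RNA, was 246 kb away. Tlr4, the lipopolysaccharide receptor, was the nearest coding gene of 1 summit, but at a distance of 482 kb. That peak had 10 tags and 3.95-fold, and Tlr4 counts here through its territory of 1188 kb, the stretch over which its ends are nearer than those of any other coding gene.

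Of the 10 cytokine genes and their relatives, Il10 stood closest to peaks. Il10 encodes an anti-inflammatory cytokine. It had a summit inside it on chromosome 1, at 131023004 to 131023178, with 9 tags, 3.49-fold and a −log10 q of 1.08. Another lay 5.44 kb beyond its higher end, at 131030338 to 131030501, with 13 tags, 5.02-fold and a −log10 q of 2.69. Il12b, which encodes the shared p40 chain of interleukins IL-12 and IL-23, had a peak 2.65 kb past its end and 17.3 kb after its start site. It had 7 tags, 2.85-fold and a −log10 q of 0.54.

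Tnf, the interleukin 1 genes and Il6, which encode classical proinflammatory cytokines, had no peak assigned to them. The summit nearest to Tnf lay 3.77 kb past its end, inside the neighbouring gene of the TNF family, Ltb, 706 bp from an end of that gene. It had 10 tags, 2.96-fold and a −log10 q of 0.76. Il1a and Il1b, which encode both forms of interleukin 1, shared their nearest summit, 179.6 kb and 245 kb away inside Polr1b. Il1rn, the gene of the receptor antagonist, was 249 kb from a summit, Il6 was 500.3 kb and Tgfb1 567 kb. Il18, whose product needs cleavage by caspase 1, was 39.3 kb away from a 4.67-fold peak inside Pih1d2. Spp1, the gene of osteopontin, was 23.4 kb from a 4.31-fold peak inside Pkd2.

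The chemokine genes lie in tight clusters, and 3 pairs of them (Ccl3 and Ccl4, Cxcl1 and Cxcl2, Cxcl9 and Cxcl10) had the same nearest peak, whereas Ccl2, Ccl5 and Ccl7 each had another. Ccl3 and Ccl4, whose products attract monocytes and T cells, overlap as records on chromosome 11 and shared 1 peak at 83656994 to 83657157. It had 13 tags, 4.55-fold and a −log10 q of 2.26. The summit lay 7.73 kb before the start site of Ccl3 and inside the record of Ccl4, 7.57 kb from its end, so it was assigned to Ccl4 by a margin that depends on where that record ends. Ccl5, in the same cluster, was 51.9 kb from its nearest summit, which lay inside Taf15. In the span of 138.9 kb from Ccl5 to Ccl4, which also holds Ccl9 and Ccl6, the peak at Ccl4 was the only one.

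No summit lay in the stretches between the members of the other chemokine pairs. Ccl2 and Ccl7, monocyte attractants 8.26 kb apart, sat in a gap of 267 kb between summits, with the nearest at 125 kb for Ccl2, inside Asic2, and 130.2 kb for Ccl7. The latter, with 11 tags and 4.31-fold, lay inside another chemokine gene, Ccl1, 1081 bp from its end. Cxcl1 and Cxcl2, neutrophil attractants 10.8 kb apart, shared their nearest summit at 160.3 kb and 147.5 kb, near Epgn. Cxcl9 and Cxcl10, interferon-induced ligands of CXCR3, shared a summit inside Art3 at 58.6 kb and 37.8 kb, with no other summit within 1206 kb on the lower side. In all, 8 members shared 4 nearest summits, so the 53 genes had 49 distinct nearest peaks, and neighbouring chemokine genes are not separate observations.

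Of the 5 genes of NF-κB subunits, 0 had a peak inside, at an end or assigned to it, against 22.2% of coding genes, and 5 genes are too few to set them apart by this count. Rel, the gene of c-Rel, was closest at 11.8 kb, with a 3.23-fold peak of 8 tags inside Pus10. Rela, the gene of the p65 activating subunit, was 16.5 kb from a 3.14-fold peak. Nfkb2, the gene of the p100 precursor, was 43.6 kb from a 4.07-fold peak inside Gbf1. Nfkb1, the gene of the p105 precursor, was 273 kb from a summit and Relb, the gene of the partner of p52, 402 kb. The distances thus spanned 11.8 kb to 402 kb with a median of 43.6 kb.

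The IκB kinase genes ranged from close to very far. Chuk, the gene of IKKα, had a 4.67-fold peak of 12 tags 4.12 kb past its end, which lay inside Erlin1 and 948 bp from an end of that gene. Ikbkg, the gene of the regulatory subunit NEMO, was 31.5 kb from a 2.86-fold peak, and Ikbkb, the gene of IKKβ, was 1158 kb from a summit on chromosome 8. Among the inhibitors, Nfkbie, the gene of IκBε, had a summit 4.05 kb past its end with 13 tags, 4.55-fold and a −log10 q of 2.26. It lay inside Slc35b2 and also within 1000 bp of an end of Hsp90ab1, so it sits at the ends of other genes. Tnip1, which encodes a partner of A20, had 1 summit inside it, 11.0 kb from an end, with 10 tags and 3.87-fold. A second summit of 3.95-fold lay 8.08 kb outside Tnip1, but 143 bp from an end of Gpx3, a glutathione peroxidase gene. Nfkbia, the gene of IκBα, was 73.8 kb from its nearest peak, Nfkbib 421 kb, and Tnfaip3, the gene of A20 itself, 764 kb.

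Of the inducible enzymes, Ptgs2, the gene of cyclooxygenase 2, was the nearest coding gene of a peak 14.9 kb past its end, with 9 tags, 3.56-fold and a −log10 q of 1.08. Nos2, the gene of inducible nitric oxide synthase, was 52.2 kb from a summit, and 3 summits lay within 100 kb of it, the highest of 4.67-fold. The inflammasome gene Nlrp3 was 20.5 kb from a 3.76-fold peak, and Casp1, the gene of the caspase that it activates, was 477 kb from a summit. Socs3, which encodes a suppressor of cytokine signalling, was 43.1 kb from a 3.95-fold peak inside Pgs1. Il4ra, the gene of the interleukin 4 receptor α chain, was 213 kb from a summit.

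The peaks assigned to members were as weak as the list around them. The 14 peaks had 7 to 13 tags with a median of 10, the median of the 7652 peaks on these chromosomes. Their median fold was 3.90, with a range of 2.85 to 5.02, against a median of 3.59 in the list. A q of at most 0.05 was reached by 8 of 14 (57.1%) against 50.5% of all peaks, and a q of at most 0.001 by 0 of the 14 and by 183 peaks in all. For 7 tags the exact Poisson 95% interval is 2.81 to 14.4 and for 13 tags it is 6.92 to 22.2, so the highest and the lowest of these peaks overlap in counting error. No order of strength among the members can be read from them. With peaks of a q of at most 0.05 only, 1 member had a summit at an end (1.89%, against 1.18% of coding genes), 4 had one inside (7.55%, against 6.75%) and 8 were nearest to one (15.1%, against 12.8%). With peaks of 4-fold or more only, 4 members were nearest to a summit (7.55%, against 7.99%), namely Il10, Ccl4, Irak4 and Tlr1. Inside a gene it was 2 members (3.77%, against 4.02%), Ccl4 and Irak4, and at an end 0 members (against 0.599%). With a q of at most 0.001 it was 0 members by each definition, against 0.0777% at an end, 0.379% inside and 0.804% nearest.

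By distance alone, members lay closer to summits than coding genes at large, a difference that was not tested. The median distance from a member to the nearest summit was 43.6 kb, against 100.4 kb for all coding genes. Within 3 kb of an end 5 members had a summit (9.43%, 3.13 to 20.7, against 5.12%). Within 10 kb it was 15 members (28.3%, 16.8 to 42.3, against 12.5%), and within 100 kb 33 (62.3%, 47.9 to 75.2, against 49.9%). With peaks of a q of at most 0.05 it was 10 within 10 kb (18.9%, against 6.75%), and with peaks of 4-fold or more 7 (13.2%, against 3.86%). Those 15 genes include Tnf, Myd88, Nfkbie, Chuk and Ccl3, whose summit was nearer to the end of another gene. Ccl3 and Ccl4 counted the same peak, so these intervals, which take genes as separate, are too narrow. At the other extreme, 15 members (28.3%) had no summit within 200 kb, against 34% of coding genes.

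**Figure D3:**
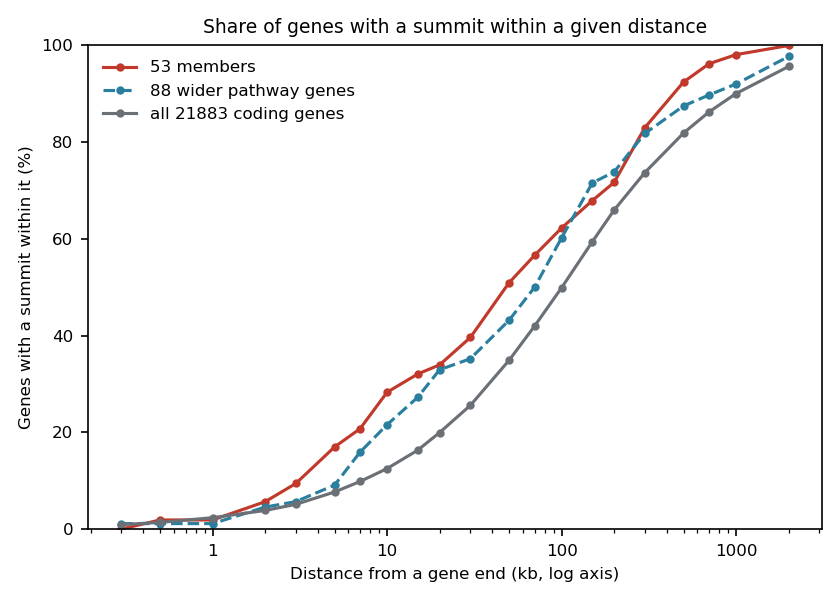
Share of genes (%) with at least 1 summit within a given distance of either end (kb, log axis), for the 53 members, the 88 genes of a wider pathway list and all 21883 coding genes. The 3 lines lie together at 1 kb and are apart at 10 kb, where they read 28.3%, 21.6% and 12.5%.

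Gene territory and local peak density set how often a gene is nearest to a summit, so members were set beside other coding genes alike in both. With genes sorted into deciles of territory and deciles of the peak count in their 5 Mb bin, the other genes of the same strata gave an expected 10.97 members nearest to a summit, and 11 were found. For a summit within 10 kb of an end the same strata gave 8.19 and 15 were found. For a summit inside the gene, with strata of gene length in place of territory, it was 4.33 expected and 6 found. These expected counts are descriptions without a test.

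Distance followed the uneven spread of peaks over the genome. Across the 53 genes, Spearman's rho between distance and the number of peaks in the 5 Mb bin was -0.47, and it was -0.63 across all coding genes. Genes share bins and both measures come from the same peaks, so this is a description. All 6 members on the sparse chromosomes 7 and 10 (Relb, Tgfb1, Nfkbib, Il4ra, Tnfaip3 and Irak3) were 211.5 kb or more from a summit. Chromosome 7 held 153 peaks and chromosome 10 held 58. The share of all coding genes there at such distances is not given here, so this count does not set the members apart. In bins of 20 peaks or more the 24 members had a median distance of 18.5 kb, against 38.3 kb for all coding genes in such bins. In bins of 10 to 19 peaks the order turned, with 147.5 kb for 17 members and 80.6 kb for all. Those 17 include Il1a and Il1b, Cxcl1 and Cxcl2, and Cxcl9 and Cxcl10. Each of these pairs shared its nearest summit, so the 17 are not separate observations. In bins of fewer peaks the median was 325 kb for 12 members and 387 kb for all. The shorter distance of members was therefore not seen at every density, and the part that local density plays in it was not tested.

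**Figure D4:**
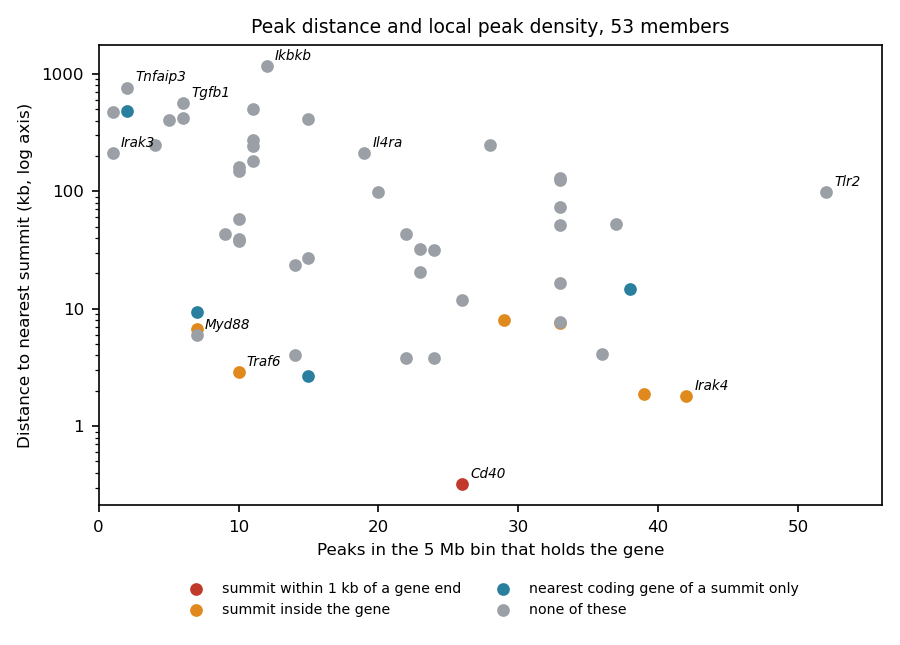
Distance from each of the 53 members to its nearest summit (kb, log axis) against the number of peaks in the 5 Mb bin that holds the gene, coloured as in the plot of distances by role. Tnfaip3, Irak3 and Tgfb1 sit at the upper left in bins of few peaks, whereas Myd88, at 5.92 kb in a bin of 7 peaks, and Tlr2, at 97.7 kb in a bin of 52, depart from the general slope.

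The wider list held other receptors, chemokines, adaptors and transcription factors of these pathways, of which 88 of 89 matched a coding gene. A gene-end peak was found at 1 of the 88 (1.14%), a summit inside 14 (15.9%) and a nearest summit for 25 (28.4%), against 2.36%, 11.6% and 21.1% of coding genes. With the strata used for the members, 21.5 were expected nearest and 9.25 with a summit inside. With deciles of the 5 Mb peak count alone, 2.52 were expected with a gene-end peak. None of these differences was tested. The gene-end peak was that of Card9, an adaptor of fungal sensing, at 92 bp with 7 tags and 2.80-fold. The highest folds inside genes were at Irf1, an interferon-regulated factor (13 tags, 4.98-fold), and at Il6st, the gene of the shared receptor chain gp130 of the IL-6 family (11 tags, 4.31-fold). Tab3, an adaptor of the kinase TAK1, also reached 4.31-fold. Il1r2, the decoy receptor for interleukin 1, Irf7 and Stat3 had 3.95-fold each, Traf1 3.92-fold, Il1r1 and Il6ra 3.85-fold each, and Traf3 3.70-fold. Irf7 had its summit 1.10 kb from an end and Irf1 1.89 kb. None of the 17 chemokines and chemokine receptors in the wider list had a summit inside or at an end. The shares of all coding genes were 11.6% and 2.36%. These 17 genes had a median length of 5.12 kb, against 17.2 kb for all coding genes. They are too few to be set apart by this count.

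Promoter sequences of members were searched for the words that NF-κB and Nr4a proteins are known to bind, and are shown here because the peaks themselves could not be read as sequence. RefSeq's table for GRCm38.p6 gave 54 windows, from 250 bp before to 50 bp after a start site, for 40 of the 53 members. The NF-κB word was searched as GGG, any 2 bases and TTTCC, and the word bound by single Nr4a proteins as AAAGGTCA, each on both strands. The NF-κB word stood in 13 of the 54 windows (24.1%), of 10 members, and in 1.63% of all 32851 windows. The Nr4a word stood in none of the 54 and in 1.51% of all windows. Windows of neighbouring start sites can overlap, and the same letters in Il1rn and in Nfkb2 were counted again in a further window. The members were picked as inflammatory and NF-κB genes, so their windows are not a neutral sample, and neither difference was tested. A match describes letters only and is not a binding site. The stretches below are those of 8 of the 10 members, on the strand of the gene, with the word in capitals.
Cxcl1, chr5:90891164-90891193, + strand: cctgtactccGGGAATTTCCctggcccgga
Cxcl2, chr5:90903792-90903821, + strand: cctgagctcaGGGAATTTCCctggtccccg
Il6, chr5:30013060-30013089, + strand: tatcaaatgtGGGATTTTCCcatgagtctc
Tlr3, chr8:45410572-45410601, - strand: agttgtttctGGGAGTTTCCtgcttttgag
Nfkbia, chr12:55492657-55492686, - strand: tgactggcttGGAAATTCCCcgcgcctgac
Tnfaip3, chr10:19015403-19015432, - strand: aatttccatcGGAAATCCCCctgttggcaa
Rel, chr11:23771041-23771070, - strand: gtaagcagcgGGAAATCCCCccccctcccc
Nfkb2, chr19:46305695-46305724, + strand: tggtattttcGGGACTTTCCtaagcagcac

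Cxcl1 and Cxcl2 carried the same 10 letters, beginning 71 and 97 bases before their start sites. In Nfkbia, Tnfaip3 and Rel the word was on the opposite strand, and in Nfkbia and Tnfaip3, the genes of inhibitors that NF-κB itself induces, it began 29 and 12 bases before the start. The remaining members with the word were Il1rn and Il4ra. Of these 10 genes, 0 had a summit at an end, inside or nearest to it, against 22.2% of all coding genes, and their distances ran from 11.8 kb at Rel to 764 kb at Tnfaip3 with a median of 186.5 kb. Among the 30 members whose windows lacked the word, 7 had such a summit and the median distance was 22.0 kb. Among the 13 members without a window it was 4, with a median of 52.2 kb. The groups overlapped in distance, and no test was made of this difference. The 10 genes with the word are too few to be set apart by this count. They are also not separate observations, since Cxcl1 and Cxcl2 shared their nearest summit. Rel and Nfkb2 were already counted among the genes of NF-κB subunits.

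The only member window that touched a peak was that of Tlr6, where the last 9 bases of the window, in capitals in the stretch below, are the edge of the peak.
Tlr6, chr5:64959999-64960028, - strand: gtcttggtaagtaagaaggctTTTCTGGAT
Of all windows 0.438% touched a peak. The windows of Cd40, Il10 and Ccl4 were not used here.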

How the data were processed

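Chromatin was digested enzymatically with a kit, per the labels' protocols, and 1 anti-Nr4a2 library and 1 input library of BV2 cells were sequenced. The submitters' processing notes list Bowtie2, MACS2 2.2.6, ChIPseeker and mm10. Per the file headers, the authors called peaks with MACS 2.1.4 at a p-value cutoff of 0.001, with 1 tag kept per position and a fragment length of 164 bp. The deposited pileup is a coverage signal, the number of extended ChIP tags at the summit. The authors' fold enrichment divides pileup by local background, a ratio with 1 added to each. The deposited −log10 p-value and −log10 q-value columns were used as given, although a header line announces that no q is computed.

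Of 7680 deposited peaks, 7652 on chromosomes 1 to 19, X and Y were used. Gene records and promoter windows came from RefSeq tables of GRCm38.p6, with mm10 coordinates counted from 1. A summit was at a gene end within 1000 bp of either end of a record, which may be the start or the far end. Nearest genes were coding genes by gene end. Territory is the length of chromosome closer to the ends of a gene than to those of any other coding gene. Expected counts sum, over members, the share of other coding genes in the same stratum. Every member was to be named with its values, and from the wider list the 10 genes of highest fold with a summit at an end or inside; Card9, with the single gene-end peak, was named after its values were seen. The members, lists and rules were chosen with earlier results of these data known. The strata for summits inside genes and within 10 kb, the start-site and promoter word counts and the split by peak density were added after seeing the data. Scripts ran in Python 3.11.15 with pandas 2.3.3 and scipy 1.17.1, and the scoring was tested on simulated summits. With 1 library of each kind no replicate error exists, and intervals of 95% cover counting error only.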

Additional observations from a re-analysis of the deposited data

How the results depend on the processing

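The counts depend on the window around gene ends and on which peaks are kept. With a deposited q of at most 0.001 no member had a summit at an end, inside or nearest to it (0 in each), and the median distance rose from 43.6 kb to 8203 kb, since 183 peaks were left. With peaks of 4-fold or more the count at an end was 0, inside 2 and nearest 4, and the median distance was 331 kb. With a q of at most 0.05 the median distance was 144 kb, while the counts were 1, 4 and 8. Windows of 3 kb and 10 kb gave 5 and 15 members with a gene-end peak. Peak edges in place of summits, distance to the gene record, noncoding records among the nearest genes, other strata, and leaving out members on chromosomes 7 and 10 (added after seeing the data) each moved the values they were run on by less than 1.5 times. No paired analysis was possible because there was 1 library of each kind. With 7 to 13 tags at assigned peaks, the depth sets no order among members.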
